A study of Homo sapiens with 3 samples.

Results

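The transcripts described here are those of NFE2L2, which encodes the transcription factor NRF2, of its inhibitor KEAP1, and of 7 antioxidant genes that NRF2 is known to activate: HMOX1, NQO1, GCLC, GCLM, TXNRD1, SRXN1 and AKR1C1. They were chosen by gene symbol, as the array probe sets whose single symbol is 1 of these 9 names. All 9 genes were on the array, through 22 of its 54675 probe sets, and they are 9 of the 19775 genes that have a probe set with a single symbol. The samples were SKOV3 cells, an established ovarian cancer cell line, stably transduced with G9a shRNA1, with G9a shRNA2, or with Luc shRNA, an shRNA against luciferase that served as the control. G9a, the product of EHMT2, is a methyltransferase that places methyl groups on lysine 9 of histone H3, and the arrays asked which transcripts differ once it is depleted. All cells carried a lentiviral shRNA and had been selected with puromycin, and 1 Affymetrix array was made for each of the 3 conditions. No condition has a replicate, so differences are given as ratios beside their background over all genes, without p-values, and precision is limited by having 3 arrays.

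NRF2 is held in the cytoplasm by KEAP1, an adaptor of the CUL3 ubiquitin ligase, which marks it for destruction. Oxidants and electrophiles modify cysteines of KEAP1, NRF2 then escapes, enters the nucleus, pairs with a small MAF protein and binds antioxidant response elements near its target genes. BACH1 occupies the same elements as a repressor and is best known for its hold on HMOX1. Because NRF2 is controlled mainly through its stability, the transcript levels of its targets are commonly read as a sign of its activity, whereas the level of NFE2L2 mRNA is not. In cancer cells, high NRF2 output is known for its part in resistance to drugs and oxidants.

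The antioxidant response element has the core TGACNNNGC, which was looked for on both strands in the promoter windows that RefSeq sequence gives for 8 of the 9 genes (GRCh38.p14, 250 bases before to 50 bases after the gene start). HMOX1 was the gene with no window. For each other gene a single window was searched, so any other start of a gene was not covered. The core was present in 2 of the 8 windows, those of GCLM and TXNRD1, and in 13.6% of all 27305 windows. The 3 matches are shown because these are the members whose promoter-proximal sequence carries the letters NRF2 is known to bind, each read 5′ to 3′ on the strand of the gene, with the core in capitals and 10 bases on either side in lower case.
GCLM: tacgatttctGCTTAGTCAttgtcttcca
TXNRD1 upstream: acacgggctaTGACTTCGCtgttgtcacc
TXNRD1 near the start: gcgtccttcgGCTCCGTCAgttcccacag
GCLM is read from the minus strand, and its stretch lies at chr1:93909446-93909474, with the core beginning 34 bases before the gene start and reading TGACNNNGC on the opposite strand. TXNRD1 is read from the plus strand, and its stretches lie at chr12:104215670-104215698, with the core 99 bases before the start on the gene's strand, and at chr12:104215761-104215789, with the core 8 bases before the start on the opposite strand. The AP-1 site TGANTCA, which can share its first bases with the element, was found in 0 of the 8 windows and in 7.76% of all windows. A match is a run of letters and not a measured binding site, and antioxidant response elements can also lie further away than these windows reach.

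The deposited values are linear MAS5 signals. The log2 ratio of each G9a shRNA array over the Luc shRNA array was taken, where 1 is a doubling. A probe set was read when the highest of its 3 signals reached the median of all values, 11.96, and a gene was represented by its brightest probe set. At that probe set all 9 genes also reached the 75th percentile of all values, 89.7. Of their 22 probe sets, 16 reached the 75th percentile, 2 lay between the median and it, and 4 lay under the median and were not read. Both comparisons share the Luc shRNA array, so that an error of that array enters both in the same direction. Over the 13192 genes past the filter the median log2 ratio was 0.00 with G9a shRNA1 and 0.12 with G9a shRNA2. Among probe sets past the 75th percentile, the log2 difference between the 2 G9a shRNA arrays had an SD of 0.25, noise and true shRNA differences together. EHMT2 itself had a log2 ratio of -2.62 on the G9a shRNA1 array and -1.20 on the G9a shRNA2 array at its brightest probe set, and -0.21 and -0.75 at the next. Of 10 epithelial and ovarian carcinoma markers, 9 passed the filter and 7 the 75th percentile, and MUC16 lay under the filter. The summed signal of these 10 was 8722 with G9a shRNA1 and 10014 with G9a shRNA2, against 7324 with Luc shRNA. Of the 9, 7 were higher with both shRNAs at any size, beside 44% of all genes past the filter. ERBB2 was the 1 lower with both, beside 30.8%. The adhesion molecule EPCAM stood at 1.06 and 0.98. The keratin KRT19 stood at 1.90 and 1.84, from signals of 49.9 and 48.2 against 13.4 with Luc shRNA, under the 75th percentile. The filter was passed by 1 of 7 leukocyte, 1 of 4 endothelial, 2 of 5 fibroblast and 3 of 4 mesothelial markers, and the 75th percentile by none of these. The part of the marker differences in the results below was not tested. The ratio of 3′ to 5′ signal for β-actin was 1.83 with G9a shRNA1, 1.47 with G9a shRNA2 and 3.68 with Luc shRNA, whereas that for GAPDH lay between 1.12 and 1.15.

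Of the 9 genes, HMOX1 alone was past 2-fold, and it was higher with both G9a shRNAs. It encodes heme oxygenase 1, the inducible enzyme that breaks heme down to biliverdin, iron and carbon monoxide. The HMOX1 signal (probe set 203665_at) was 1753 with G9a shRNA1 and 1809 with G9a shRNA2, against 792 with Luc shRNA. Both G9a shRNA arrays lay well above the control and close to each other. The ratios were 2.21-fold and 2.28-fold, or 1.15 and 1.19 on the log2 scale. The 2 G9a shRNA arrays differed by -0.05 on that scale (G9a shRNA1 over G9a shRNA2), where the SD of this difference among probe sets of like signal was 0.17. The other 8 genes had log2 ratios from -0.39 to 0.44, and none was past 2-fold with either shRNA. The background for this count is the 8348 genes past the 75th percentile, of which 0.611% were past 2-fold higher with both shRNAs and 0.467% lower. With G9a shRNA1 alone 0.958% were past 2-fold higher and 1.98% lower, and with G9a shRNA2 alone 1.4% and 0.539%. Over all genes past the lower filter, where signals are noisier, 2.57% were past 2-fold higher with both shRNAs and 1.66% lower. There, 4.21% were higher and 5.1% lower with G9a shRNA1 alone, and 4.35% and 3.58% with G9a shRNA2 alone. With HMOX1 itself counted, 55 of those 8348 genes had a log2 ratio at least as high with G9a shRNA1 and 56 with G9a shRNA2. HMOX1 is also in the study's list of changed genes, drawn from the same arrays, so its direction is not independent evidence. HMOX1 has 1 probe set, so no second reading of it was to be had, and the part that the β-actin 3′ to 5′ ratio, which differs between the arrays, plays in its value was not tested.

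**Figure D1:**
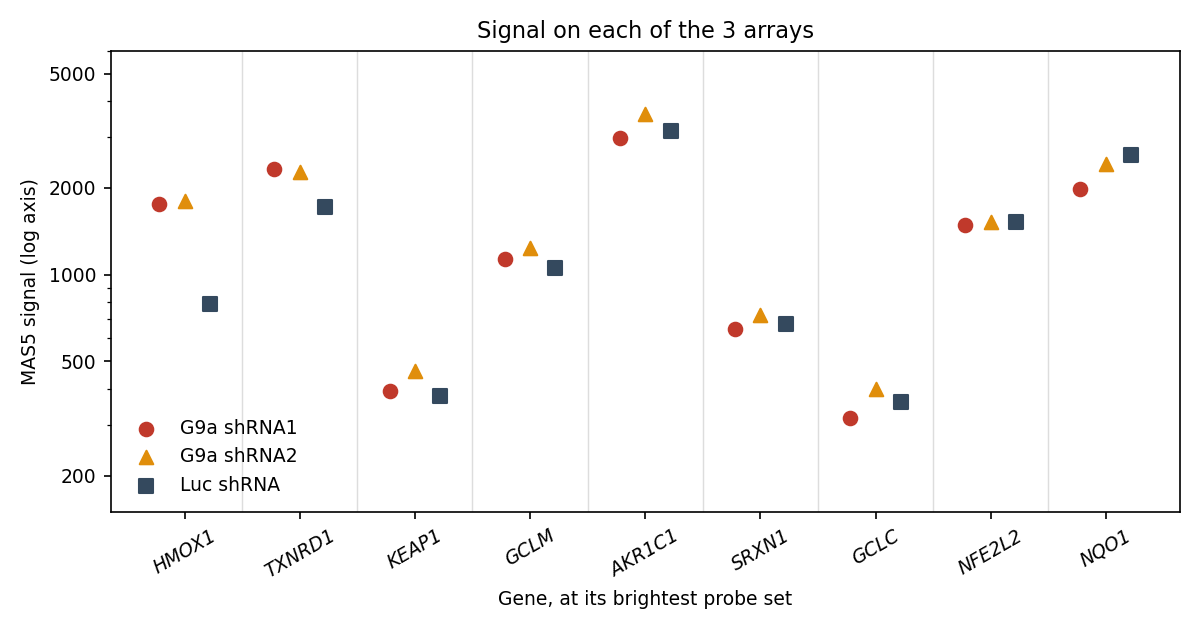
MAS5 signal (y axis, log scale) of the 9 genes at their brightest probe set on the G9a shRNA1, G9a shRNA2 and Luc shRNA arrays, 1 array per condition, with no error bars since there are no replicates. HMOX1 stands at 1753 and 1809 with the G9a shRNAs against 792 with Luc shRNA, TXNRD1 at 2325 and 2281 against 1716, and in the other 7 genes the arrays lie closer together.

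The regulators themselves differed little. NFE2L2 (201146_at) had a signal of 1482 in G9a shRNA1 cells and 1528 in G9a shRNA2 cells, against 1525 in Luc shRNA cells, log2 ratios of -0.04 and 0.00. The 3 arrays were thus nearly level at the brightest NFE2L2 probe set. A second NFE2L2 probe set had 74.9 and 112 with the G9a shRNAs, against 99.0 with Luc shRNA, and so lay on either side of the control (-0.40 and 0.18). A further one, at 23.0 and 12.3 against 15.3, also went opposite ways (0.58 and -0.31). A probe set shared between NFE2L2 and CSNK2A1, left out because it has more than 1 symbol, gave 0.53 and 0.59. KEAP1 (202417_at) had a signal of 395 in G9a shRNA1 cells and 461 in G9a shRNA2 cells, against 379 in Luc shRNA cells. Its log2 ratios were 0.06 and 0.28, little above the medians over all genes, and the first was -0.01 after median centring.

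TXNRD1 encodes cytosolic thioredoxin reductase, the selenoenzyme that keeps thioredoxin reduced with NADPH. It came next to HMOX1, at probe set 201266_at with a signal of 2325 in G9a shRNA1 cells and 2281 in G9a shRNA2 cells, against 1716 in Luc shRNA cells. Both G9a shRNA arrays were above the control, by 1.35-fold and 1.33-fold (0.44 and 0.41 on the log2 scale), and the 2 differed from each other by 0.03, where the SD among probe sets of like signal was 0.17. TXNRD1 lay above 84.0% of all genes past the filter with G9a shRNA1 and above 78.2% with G9a shRNA2. Of the 8348 genes past the 75th percentile, 893 were at least as high with G9a shRNA1 and 1462 with G9a shRNA2, TXNRD1 itself counted. Values of this size with 1 shRNA were thus not rare, and the share as high with both was not computed. The other TXNRD1 probe set was under the filter on all 3 arrays and was not read. Element cores are printed above for TXNRD1 and for GCLM, whose log2 ratios were 0.10 and 0.23 at its brightest probe set. The part of the cores in these values was not tested.

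Glutathione is made by glutamate-cysteine ligase, of which GCLC is the catalytic and GCLM the modifier subunit. GCLM (203925_at) had a signal of 1133 in G9a shRNA1 cells and 1239 in G9a shRNA2 cells, against 1054 in Luc shRNA cells, log2 ratios of 0.10 and 0.23. Its other 2 probe sets were also slightly higher with both shRNAs as deposited, at 0.26 and 0.08, and at 0.45 and 0.11, but after quantile normalization both stood at -0.03 with G9a shRNA2. GCLC (202923_s_at) had a signal of 316 in G9a shRNA1 cells and 401 in G9a shRNA2 cells, against 361 in Luc shRNA cells, and so lay below the control with the first and above it with the other (-0.19 and 0.15). At a second GCLC probe set both G9a shRNA arrays were lower, with 227 and 318 against 344 (-0.60 and -0.11). The subunits therefore differed in direction with G9a shRNA1 at every probe set past the filter, 3 of GCLM and 2 of GCLC.

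NQO1, the quinone reductase that is the most widely used readout of NRF2, was lower with both G9a shRNAs at all 3 of its probe sets. At the brightest, 210519_s_at, its signal was 1988 with G9a shRNA1 and 2423 with G9a shRNA2, against 2612 with Luc shRNA, log2 ratios of -0.39 and -0.11. The other probe sets had 701 and 852 with the G9a shRNAs, against 998 with Luc shRNA, and 654 and 751, against 930. In each the order of the arrays was the same, with G9a shRNA1 lowest and Luc shRNA highest, also after each scaling tried, and the deposited ratios ran down to -0.51 with G9a shRNA1 and -0.31 with G9a shRNA2. The difference between the 2 G9a shRNA arrays at the brightest probe set, -0.29, is larger than the log2 ratio with G9a shRNA2. NQO1 was thus on the other side of the control from HMOX1 and TXNRD1, and it was past 2-fold at none of its probe sets.

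**Figure D2:**
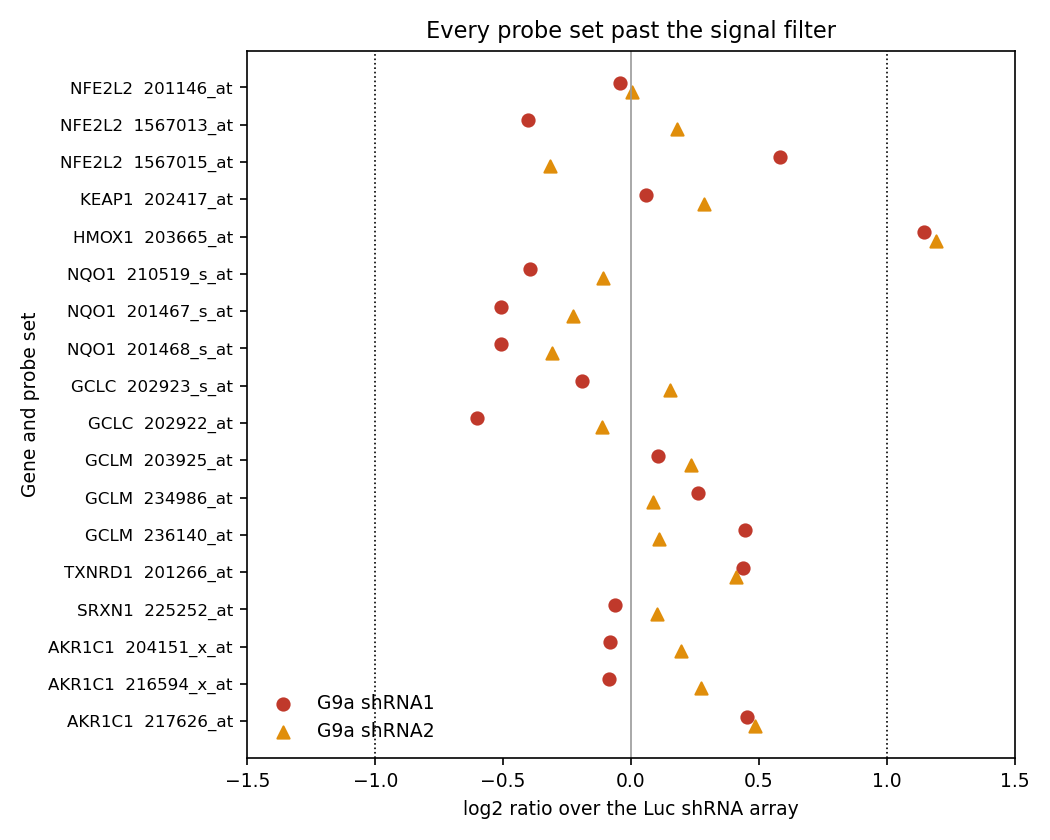
Log2 ratio over the Luc shRNA array (x axis) at the 18 probe sets of the 9 genes that passed the signal filter (y axis), for the array of G9a shRNA1 (circles) and that of G9a shRNA2 (triangles). The dotted lines stand at 2-fold. The HMOX1 probe set lies past it with both, the 3 NQO1 probe sets lie below 0 with both, and the 3 GCLM probe sets lie above 0 with both.

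SRXN1 encodes sulfiredoxin, which repairs overoxidized peroxiredoxins. Its signal (225252_at) was 645 with G9a shRNA1 and 723 with G9a shRNA2, against 674 with Luc shRNA, so that the control lay between the G9a shRNA arrays. The log2 ratios were -0.06 and 0.10. AKR1C1 is an aldo-keto reductase that inactivates progesterone and reduces lipid aldehydes. Its signal (204151_x_at) was 2988 with G9a shRNA1 and 3619 with G9a shRNA2, against 3163 with Luc shRNA, again on either side of the control (-0.08 and 0.19). A second bright probe set gave -0.09 and 0.27. Both carry the _x_ suffix that Affymetrix gives to probe sets open to cross-hybridization, and AKR1C1, AKR1C2 and AKR1C3 are closely similar in sequence, so the share of each in these signals is uncertain. AKR1C1 has 1 probe set past the filter without that suffix, with a signal of 29.1 and 29.8 with the G9a shRNAs against 21.3 with Luc shRNA, and it gave 0.45 and 0.48. Probe sets assigned to AKR1C2 gave 0.18 and 0.38 at the brightest, that of AKR1C3 gave -0.55 and -0.12, and one shared by AKR1C1 and AKR1C2 gave -0.61 and -0.28.

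Taken as a list, the 9 genes had a median log2 ratio of 0.06 as the mean of both shRNAs, beside 0.05 over all genes past the filter. With G9a shRNA1 the median of the 9 was -0.04, beside 0.00 over all genes, and with G9a shRNA2 it was 0.19, beside 0.12. Higher with both shRNAs at any size were 4 of the 9 (HMOX1, TXNRD1, KEAP1 and GCLM), beside 44% of all genes past the filter. NQO1 was the 1 gene lower with both, beside 30.8% of all genes, and the remaining 4 lay on either side of the control. Among genes past the 75th percentile these shares were 46.9% and 28.9%. Signs of ratios this near 0 turn with the scaling: SRXN1 was lower with both, at -0.03 and -0.01, after quantile normalization. Without HMOX1 the median of the other 8 was 0.04.

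**Figure D3:**
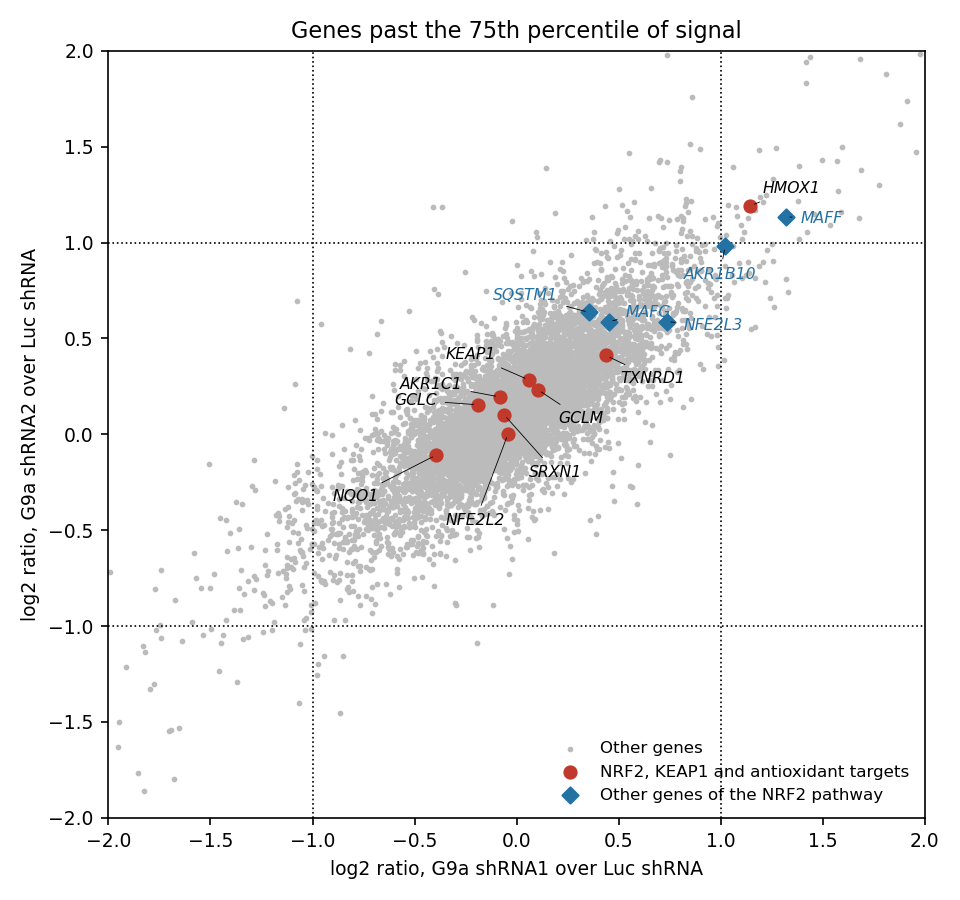
The 8348 genes whose signal reached the 75th percentile, each a point, by log2 ratio over Luc shRNA on the G9a shRNA1 array (x axis) and on the G9a shRNA2 array (y axis), with 22 genes outside the axes. Dotted lines mark 2-fold, and both axes share the Luc shRNA array. HMOX1 (1.15 and 1.19) and the small MAF gene MAFF (1.32 and 1.13) lie past 2-fold with both shRNAs, and the other 8 of the 9 genes (circles) lie within the main cloud.

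Among the small MAF partners and the relatives of NRF2, MAFF was past 2-fold higher with both shRNAs, and MAFG and NFE2L3 were higher by less. MAFF, a small MAF that is itself known as an inducible gene, had a signal of 753 in G9a shRNA1 cells and 663 in G9a shRNA2 cells, against 302 in Luc shRNA cells. Its log2 ratios were 1.32 and 1.13, and its second probe set gave 1.72 and 1.45. MAFG, the small MAF most often found with NRF2, had 451 and 496 with the G9a shRNAs, against 330 with Luc shRNA (0.45 and 0.59), and NFE2L3, a relative of NRF2, had 177 and 160, against 106 (0.74 and 0.59). The second probe sets of these genes also lay above the control, at 0.47 and 0.94 for MAFG and at 0.84 and 0.59 for NFE2L3. BACH1, the repressor of HMOX1, had 112 with G9a shRNA1 and 153 with G9a shRNA2, against 118 with Luc shRNA, on either side of the control (-0.07 and 0.37). Of the 7 genes of this list with a probe set, 5 passed the filter, 1 was past 2-fold higher with both shRNAs (beside 2.57% of all genes) and 0 were lower (beside 1.66%). All 5 reached the 75th percentile, where these shares were 0.611% and 0.467%. The median was 0.52 over the 5 and also over the 7, beside 0.05 over all genes past the filter, and over the 7 it was 0.15 when signals below 11.96 were set to 11.96.

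Of 12 measured genes that act in NRF2 turnover, none was past 2-fold with either shRNA, and their median log2 ratio was 0.11. Of all genes past the filter, 4.21% were past 2-fold higher and 5.1% lower with G9a shRNA1, and 4.35% and 3.58% with G9a shRNA2. At shares this low, a count of 0 in 12 genes says little about the list. SQSTM1, which encodes p62, an autophagy receptor that captures KEAP1 and is itself an NRF2 target, had 2226 with G9a shRNA1 and 2701 with G9a shRNA2, against 1739 with Luc shRNA. Both G9a shRNA arrays were higher, at 0.36 and 0.64, and so they were at the next 2 probe sets of SQSTM1, whereas its 2 dimmest had one value below the control each. PALB2, a KEAP1-binding protein better known from DNA repair, gave 0.46 and 0.34. RBX1, the RING subunit of the ligase, gave 0.27 and 0.28, and DCAF11, a further ligase adaptor for NRF2, gave -0.37 and -0.21.

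Beyond the 7 targets, 33 other genes known as NRF2 targets were listed, of which 30 had a probe set and 28 passed the filter. ABCC2, an export pump for glutathione conjugates, had 18.1 with G9a shRNA1 and 12.9 with G9a shRNA2, against 3.28 with Luc shRNA. It was past 2-fold higher with both (2.46 and 1.97), from signals near the background, and it gave 0.60 and 0.10 when signals below 11.96 were set to 11.96. AKR1B10, an aldo-keto reductase often raised by NRF2 in tumors, had a signal of 243 in G9a shRNA1 cells and 237 in G9a shRNA2 cells, against 120 in Luc shRNA cells. That is 1.02 and 0.98 on the log2 scale, past 2-fold with the first alone. EPHX1, microsomal epoxide hydrolase, gave 0.41 and 0.75, and TRIM16L, of the TRIM family, gave -0.80 with both. Of the 28, 1 was past 2-fold higher with both shRNAs (beside 2.57% of all genes) and 0 were lower (beside 1.66%). The median over the 28 was -0.11, beside 0.05 over all genes past the filter. Of the 28 genes, 7 were higher with both shRNAs at any size (25%, beside 44% of all genes) and 15 were lower (53.6%, beside 30.8%). After quantile normalization these were 6 and 17 genes, beside 39.5% and 38.1% of all genes.

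The enzymes that use what the 9 genes supply were mixed. Their counts past 2-fold stand beside these shares of all genes past the filter. With both shRNAs 2.57% were higher and 1.66% lower, with G9a shRNA1 4.21% and 5.1%, and with G9a shRNA2 4.35% and 3.58%. In lists this short, a count of 0 or 1 says little about the list. Among 15 measured genes of glutathione synthesis and use, 13 passed the filter, and the list median was -0.03. CHAC1, which degrades glutathione, was past 2-fold higher with both shRNAs at low signal. CTH, which makes cysteine from cystathionine, had 497 and 538 with the G9a shRNAs against 293 with Luc shRNA (0.76 and 0.88), whereas CBS, the enzyme before it, gave -1.17 and -0.43, and GPX8, a peroxidase of the endoplasmic reticulum, gave -0.84 and -0.56. None of the 12 glutathione S-transferases was past 2-fold with either shRNA, and their median was 0.08. GSTO1 gave 0.20 with both shRNAs, GSTA4 gave 0.24 and 0.12, GSTM1 gave -0.12 and 0.51, and GSTK1 gave -0.39 and -0.11. Of 13 measured genes of the thioredoxin and peroxiredoxin system, none of the 12 past the filter was past 2-fold with either shRNA. The median was -0.02 over the 12 and -0.04 over the 13. TXNIP, an inhibitor of thioredoxin, gave 0.02 and 0.82, the mitochondrial reductase TXNRD2 gave 0.12 and 0.38, the methionine sulfoxide reductase MSRA gave -0.65 and -0.30, and SESN2, a stress-induced regulator of mTORC1, gave -0.37 and -0.32.

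The lists by role share some genes with the 33 targets. For the counts that follow, 4.21% of all genes past the filter were past 2-fold higher and 5.1% lower with G9a shRNA1. With G9a shRNA2 these shares were 4.35% and 3.58%. Among genes past the 75th percentile, which all 5 measured NADPH genes reached, they were 0.958% and 1.98% with G9a shRNA1. There, they were 1.4% and 0.539% with G9a shRNA2. Of 5 measured genes of NADPH supply, PGD of the pentose phosphate pathway gave 0.20 and 0.55, TKT gave 0.06 and 0.38, TALDO1 gave -0.39 and -0.22, and IDH1, cytosolic isocitrate dehydrogenase, was past 2-fold lower with G9a shRNA1 alone (-1.12 and -0.27). The median of the 5 was -0.05, and it was 0.03 when the probe sets of each gene were averaged. IDH1 then gave -0.69 and -0.14, so its value past 2-fold rests on its brightest probe set. Of 10 measured genes of heme and iron handling other than HMOX1, 9 passed the filter. None of these was past 2-fold with either shRNA, and the median was -0.08 over the 9 and -0.15 over the 10. The transferrin receptor TFRC gave 0.49 and 0.26, the heme exporter FLVCR1 0.38 and 0.19, the heme synthesis enzyme FECH -0.26 and -0.24, and the heme transporter SLC48A1 -0.68 and -0.02. Of 12 measured quinone, aldehyde and ketone reductases and related enzymes, 10 passed the filter, AKR1B10 was the single one past 2-fold and with G9a shRNA1 only, and the median was -0.08. That median was 0.01 when the probe sets of each gene were averaged. Among 6 export pumps, besides ABCC2, ABCC5 gave 0.43 and 0.35, ABCG2 0.20 and 0.52 and ABCC4 -0.51 and -0.20, and the median was 0.15. Of the 5 superoxide dismutase and catalase genes, the extracellular enzyme SOD3 was past 2-fold lower with G9a shRNA1 alone, at low signal (-1.29 and -0.24), CAT gave -0.47 and 0.02, SOD2 -0.41 and -0.07, and CCS, the copper chaperone of SOD1, 0.07 and 0.33, with a median of -0.23. That median was -0.03 when the probe sets of each gene were averaged, so it depends on the probe set chosen.

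HMOX1 is also known to respond to factors other than NRF2, and 13 of these were listed, of which 12 passed the filter. Of these, ATF3 alone was past 2-fold higher with both shRNAs (beside 2.57% of all genes) and 0 were lower (beside 1.66%). Among genes past the 75th percentile, which 11 of the 12 reached, these shares were 0.611% and 0.467%. The median over the 12 was 0.10, beside 0.05 over all genes past the filter. At any size 5 of the 12 were higher with both shRNAs (41.7%, beside 44% of all genes). None was lower with both (beside 30.8%), and the remaining 7 lay on either side of the control. After each of the 3 scalings 1 of the 12 was lower with both, beside 38.1% of all genes after quantile normalization. ATF3 had a signal of 457 in G9a shRNA1 cells and 428 in G9a shRNA2 cells, against 152 in Luc shRNA cells. JUN, a subunit of AP-1, had 1901 and 2004 with the G9a shRNAs, against 1287 with Luc shRNA (0.56 and 0.64). FOSL1, a partner of JUN, gave 0.61 and 0.52, and FOS gave 0.70 and 0.54 at low signal. These 4 are named because they lay furthest from 0 among the 12. Both G9a shRNA arrays were above the control in each of the 4 at the brightest probe set, though the dimmest of the 4 JUN probe sets gave 0.10 and -0.80.

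The genes whose pair of log2 ratios lay nearest to that of HMOX1, by Euclidean distance over the 2 comparisons among genes past the 75th percentile, were SIK1, GCH1, CCNE1, FOXQ1 and LINC00847, none of them in the lists above. Their distances were from 0.03 to 0.07. SIK1, a salt-inducible kinase, had a signal of 1004 in G9a shRNA1 cells and 1006 in G9a shRNA2 cells, against 447 in Luc shRNA cells. GCH1, the first enzyme of tetrahydrobiopterin synthesis, had 209 and 208, against 95.2. CCNE1, cyclin E1, had 417 and 418, against 181. FOXQ1, a forkhead transcription factor, had 230 and 237, against 101. With 3 arrays this likeness rests on 2 ratios that share a control.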

How the data were processed

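RNA of SKOV3 cells was hybridized to Affymetrix Human Genome U133 Plus 2.0 arrays, 1 per condition. The authors deposited probe set intensities made with MAS5, as the submitters' processing notes state, with version and scaling not given in the sources used here, so the intensity values were used as deposited, without detection calls. No value was at or below 0. Probe sets were named through the array annotation, with symbols updated by Entrez identifier (RefSeq genes, GRCh38.p14): 41097 had 1 symbol, 1801 several and 11777 none, and 42 identifiers had no match. Groups came from the sample titles. A gene was called when past 2-fold with both shRNAs in 1 direction, the study's fold applied to each.

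The 9 genes and the lists were chosen with earlier results of these data known. Named are all 9 genes, EHMT2, up to 4 genes of each of the 12 other lists furthest from 0 by the mean log2 ratio, and the 5 genes nearest HMOX1. Of the markers, KRT19 and EPCAM were named as those furthest from 0 among the epithelial and ovarian carcinoma markers past the filter. MUC16 and ERBB2 were named after their values were seen, and markers of other cell types were given as counts. MAFK, SYVN1, TXNRD3, PRDX5, AKR1A1, AKR1B1, FTH1 and NR0B1 had no probe set with a single symbol and were not analysed here.

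The alternatives were the filter, a floor, 3 scalings, the fold, the probe set, the shRNAs taken singly, and a limma fit (version 3.58.1, R 4.3.3) of G9a shRNA against Luc shRNA. The steps were tested on simulated data with a single noise level for all probe sets and changes planted in bright ones only. A first version with a single draw fell short of its bound, and a mean over several draws replaced it. The simulation checks the calculation and not the error in these arrays, where dim probe sets were noisier. Python 3.11.15, numpy 2.4.6, pandas 2.3.3 and matplotlib 3.10.9 were used.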

Additional observations from a re-analysis of the deposited data

How the results depend on the processing

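HMOX1 stayed past 2-fold higher with both shRNAs under each of the 3 scalings. Its mean log2 ratio was 1.17 as deposited, 1.12 after median centring, 1.12 with a common trimmed mean and 1.14 after quantile normalization. The filters, the floor and the probe set choices could not alter it, because its single probe set has signals far above them. Taken singly, G9a shRNA1 gave 1.15 and G9a shRNA2 gave 1.19. The count of 1 gene of 9 past 2-fold was also found at 1.5-fold, and it was 0 at 3-fold. It was 2 when the probe sets of a gene were averaged, where TXNRD1 was added at 2.16 through its probe set under the filter. With limma, where G9a shRNA1 and G9a shRNA2 formed 1 group whose spread was lent to the single Luc shRNA array, 0 of the 9 had an adjusted p under 0.05. HMOX1 had an adjusted p of 0.44, and over 30446 probe sets limma called 0, with 2915 at an unadjusted p under 0.05. EHMT2 had a mean log2 ratio of -1.91, not past 3-fold with both shRNAs and without a call in limma at the same -1.91, and it stood at -0.46 when its probe sets were averaged. The median of the 9 genes ran from -0.04 to 0.19, its values with G9a shRNA1 and with G9a shRNA2 alone. The median over all genes past the filter with G9a shRNA2 was 0.12 as deposited and 0.01 after quantile normalization. List medians and single probe sets under the scalings were computed after seeing the data. No paired analysis was possible because each condition has 1 array. Signal over background limits the rest: the 2 G9a shRNA arrays differed by more than 2-fold in 0.443% of probe sets past the 75th percentile and in 14.1% of those between the median and it.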
